A study of Mus musculus with 2 samples.

Results

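The genes described here encode immediate early transcription factors of the AP-1, EGR and NR4A families. They were taken by symbol from both deposited tables, 10 genes (Fos, Fosb, Jun, Junb, Jund, Egr1, Egr2, Nr4a1, Nr4a2 and Nr4a3) of 24346 symbols, and all 10 were found in both. The libraries were made from CD4+ T cells that had been sorted out of mouse spleen at day 14, and both carry the label HFD-MI. One group received probucol, which lowers cholesterol and acts as an antioxidant, the other was untreated, and each is represented by 1 library. Both column headers also hold HypoE, a term left unexplained by the labels. The labels used here state no genotype, age, number of animals per library or dose.

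Immediate early genes are switched on within minutes of a stimulus, before any new protein is made, by transcription factors that already sit in the nucleus. In T cells the stimulus is usually the antigen receptor, acting through calcium and the RAS and MAP kinase cascades. FOS and JUN proteins pair through leucine zippers to form AP-1, which binds DNA together with NFAT at cytokine genes. EGR proteins bind GC-rich sites through zinc fingers and are held in check by the NAB corepressors, whose genes they can induce. NR4A proteins are orphan nuclear receptors, and Nr4a1 (Nur77) is widely used as a reporter of antigen receptor signalling. B cells and myeloid cells use the same factors.

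Short stretches of the promoters are shown because they match the letters of DNA elements of kinds through which immediate early genes can be induced. Whether the printed copies act in this way was not measured. RefSeq promoters (GRCm38.p6, the assembly of mm10) were matched for 9 of the 10 genes; Egr1 was not matched. The 250 bases before each annotated start were searched on both strands, so elements farther away were not seen. The core of the cAMP response element (CRE), TGACG, was present before at least 1 start of 7 of the 9 matched genes, against 19.8% of the 27025 genes with a promoter in the table. The stretches below are written 5′ to 3′ on the strand of the gene, with the element in capitals; where the element lies on the other strand it reads CGTCA. The Fos stretch (chr12:85473809-85473843, plus strand), the Junb stretch (chr8:84978835-84978869, minus strand) and the Fosb stretch (chr7:19310086-19310120, minus strand) have the element 66, 106 and 60 bases before the start. The Nr4a1 stretch (chr15:101266791-101266825, plus strand), the Nr4a2 stretch (chr2:57124128-57124162, minus strand) and the Nr4a3 stretch (chr4:48045085-48045119, plus strand) have it 40, 144 and 205 bases before the start.
Fos: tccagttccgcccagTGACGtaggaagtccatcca
Fosb: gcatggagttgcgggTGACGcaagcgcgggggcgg
Junb: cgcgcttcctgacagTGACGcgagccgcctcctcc
Nr4a1: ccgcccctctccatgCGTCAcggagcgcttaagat
Nr4a2: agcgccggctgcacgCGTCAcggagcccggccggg
Nr4a3: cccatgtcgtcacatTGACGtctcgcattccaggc

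The Nr4a1 and Nr4a2 stretches share the run gcgtcacggagc, 12 bases, around the element. Read on the strand of each gene, neither shares more than 6 bases with any of the Nr4a3 stretches around a TGACG. Opposite strands were not compared, and the element is not on the same strand in all of these stretches, so the contrast holds for that reading only. Each of the 3 NR4A promoters held 4 copies of TGACG. Jun instead held TGACATCA, the AP-1-like element through which JUN is known to act on its own gene, 45 bases before its start (chr4:95052245-95052282, minus strand). This element was present in 3.41% of genes. Egr2 held a CArG box, the binding site of serum response factor, in 4 of the 5 windows before its listed starts, at a pair of positions. The box shown lies 72 bases before the start at position 67537869 (chr10:67537782-67537821, plus strand) and is followed by a TGACG on the other strand; 1.62% of genes held a CArG box.
Jun: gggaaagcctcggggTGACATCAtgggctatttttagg
Egr2: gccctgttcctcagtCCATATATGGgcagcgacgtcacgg

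The EGR site GCGNGGGCG was found before Fosb, Nr4a1 and Nr4a2 and in 5.33% of genes. The full CRE TGACGTCA, the AP-1 site TGANTCA and the NR4A site AAAGGTCA had no match in these windows, and were held by 1.77%, 7.82% and 1.55% of genes. The SP1 box GGGCGG, which overlaps some EGR sites, was found before 7 of the 9 genes and in 35.4% of genes. The Jund start in RefSeq lies 1210 bases before that of GENCODE release M21, so its window, which held none of these elements, is not the region before the GENCODE start. The Nr4a1 start lies 12577 bases and the Nr4a3 start 152 bases inside the GENCODE gene, and the Egr2 starts whose windows hold a CArG box lie 2091 to 2455 bases inside it, so these stretches are placed by starts other than the outermost one. A match is a description of the letters, and binding was not measured here.

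Levels are FPKM, in which fragment numbers are divided by transcript length and library size, so that levels can be compared between genes. Low values fell on steps that imply about 9950250 fragments with probucol and 10000000 untreated. At these totals 1 FPKM of a 1 kb transcript stands for about 7.86 and 7.90 fragments. Although the implied totals were close, fewer symbols were above 0 with probucol, 14289 against 16876 untreated. The part of this gap in genes at low levels, such as Nr4a2, was not tested. The CD4 T cell markers were abundant, with summed levels of 4187 FPKM with probucol and 4227 FPKM untreated over 7 genes. Cd8a was at 0.139 and 0.276 FPKM, and Cd8b1 at 15.9 and 19.6 FPKM. Markers of other cells differed between the libraries. The 12 B cell markers summed to 105 FPKM with probucol and 56.0 FPKM untreated, with Pax5 at 0 in both. Of the 8 at a mean FPKM of 1 or more, 7 were at least 2-fold higher with probucol, against 1.62% of all genes. The remaining one, Cd72, at 32.8 and 29.9 FPKM, was near level and made up much of both sums. The 11 erythroid markers found summed to 307 and 1108 FPKM, with none at 0. Of the 10 at a mean of 1 or more, 5 were at least 2-fold lower, against 1.98% of all genes. The macrophage list summed to 159 and 157 FPKM over 10 genes, of which Lyz2 made up 125 and 132 FPKM. In that list 6 of the 8 genes at a mean of 1 or more were higher with probucol, among them Csf1r at 3.75 and 1.85 FPKM. Of all 10663 genes 5617 were higher, so a count of 6 among 8 says little. The neutrophil list summed to 1064 and 947 FPKM over 8 genes, mostly S100a8 and S100a9. In it 7 of the 8 were higher, beside the same 5617 of all 10663 genes. Elane, at 11.97 and 2.80 FPKM, and Mpo, at 10.9 and 4.23 FPKM, were past 2-fold, against 1.62% of all genes. The natural killer list summed to 7.85 and 13.1 FPKM over 6 genes, with Klra8 at 0 in both. Klrd1, at 1.22 and 6.22 FPKM, and Eomes, at 2.77 and 4.50 FPKM, were lower, while Ncr1, at 1.04 and 0.0795 FPKM, Klrb1c, at 1.82 and 1.57 FPKM, and Klre1, at 0.996 and 0.708 FPKM, were higher. The dendritic cell list summed to 2.66 and 3.48 FPKM over 6 genes. In it Zbtb46, at 0.422 and 1.37 FPKM on about 10 and 32 fragments, was lower with probucol. Flt3, Siglech, Clec9a and Itgax were higher, on at most 11 fragments a library, with Clec9a and Itgax at 0 untreated. The part of these cells in the values below was not tested, and in bulk RNA fewer cells that express a gene cannot be told apart from less RNA per cell.

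Egr1 and Egr2 were about 1.3-fold higher with probucol, Jun and Jund about 1.3-fold lower and Nr4a2 about 3-fold lower, while Fos, Junb, Nr4a1 and Nr4a3 differed by less than their counting intervals. Summed over the 10 genes, the level was 1599 FPKM with probucol and 1612 FPKM untreated. Of the 9 genes with a mean FPKM of 1 or more, 0 were at least 2-fold higher and 1 was at least 2-fold lower on the log2(FPKM + 1) scale, where 3.60% of 10663 genes passed that fold in either direction, 1.62% higher and 1.98% lower. At 1.5-fold the count was again 0 higher and 1 lower, against 5.99% and 5.53% of all genes and 11.5% in either direction. The gene past both folds was Nr4a2, and a count of 1 among 9 rests on that gene alone. Of the 9 genes 3 were higher and 6 lower, and of all 10663 genes 5617 were higher and 5046 lower. The median log2 ratio of the 9 genes was -0.07, and that of all 10663 genes was 0.02. No spread between replicates can be had from 1 library a group, so no test was made. The intervals given with each fold are 95% exact binomial intervals on estimated fragments, which cover counting error only and hold no biological or preparation error.

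**Figure D1:**
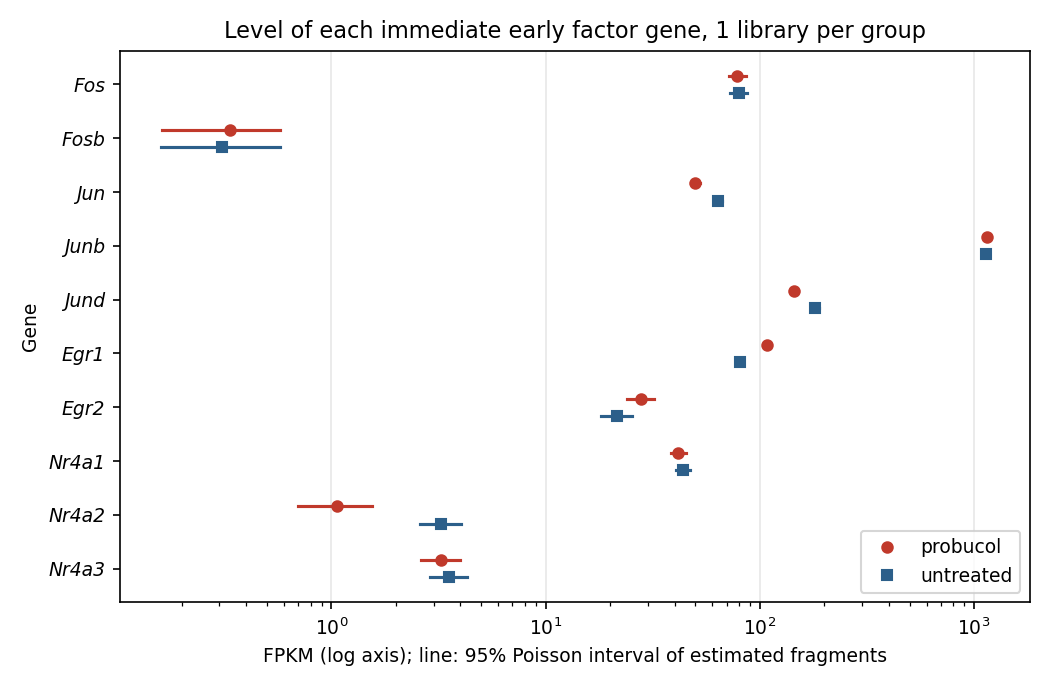
FPKM of each of the 10 genes on a log axis, with probucol (circles) and untreated (squares), 1 library each; lines are 95% Poisson intervals of the estimated fragments, hidden behind the symbol where they are narrow. Junb stands far to the right at 1145 and 1134 FPKM, Fosb far to the left at 0.337 and 0.308 FPKM, and Nr4a2 shows the widest gap between the libraries.

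The order of levels was the same in both libraries. It ran from Junb through Jund, Egr1, Fos, Jun, Nr4a1, Egr2, Nr4a3 and Nr4a2 to Fosb. With probucol no neighbours in this order had overlapping counting intervals. Untreated, Egr1 and Fos overlapped at 80.9 and 80.0 FPKM, as did Nr4a3 and Nr4a2 at 3.54 and 3.26 FPKM. These intervals hold no biological spread. Among the 10663 genes with a mean FPKM of 1 or more, Junb ranked 96 with probucol and 107 untreated, whereas Nr4a3 ranked 8846 and 8622.

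Fos encodes c-FOS, which cannot pair with itself and needs a JUN partner to bind DNA. Fos (chromosome 12, 85473890 to 85477273, GENCODE M21 on GRCm38) stood at 78.4 FPKM in the probucol library against 80.0 FPKM in the untreated one, with a ratio of 0.980 (0.863 to 1.12). The libraries thus differed by less than the counting interval. Fosb, which encodes a relative that is typically induced together with Fos, was at 0.337 and 0.308 FPKM, about 11 fragments in each library, and its ratio of 1.10 had an interval from 0.395 to 2.56. Fosb was the only one of the 10 genes with a mean under 1 FPKM and took no part in the counts above. The level of Fos was 233 times that of Fosb with probucol and 260 times untreated. Fosl1 was listed at 0 in both libraries and Fosl2, another gene with a mean under 1 FPKM that is named after its value was seen, was at 0.674 and 0.459 FPKM, so Fos made up 98.7% and 99.1% of the summed FPKM of the 4 FOS genes.

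Junb encodes JUNB, which in T cells pairs with BATF and is needed for T helper 17 cells in mice. Junb (chromosome 8, 84974484 to 84978718) stood at 1145 FPKM in the probucol library against 1134 FPKM in the untreated one, with a ratio of 1.01 (0.983 to 1.04). It made up 85.5% of the summed FPKM of the 3 JUN genes with probucol and 82.2% untreated. Jun, which encodes c-JUN, the prototype of the family, was at 50.04 and 64.0 FPKM, 1.28-fold lower with probucol (1.19 to 1.37). Jund, whose product restrains proliferation of mouse lymphocytes, was at 144 and 181 FPKM, 1.26-fold lower (1.19 to 1.33). Jun and Jund were therefore lower by a similar factor, outside their counting intervals, while Junb was level. The ratio of Junb to Jun went from 17.7 untreated to 22.9 with probucol. The coding transcripts of Jun, Junb and Jund each have 1 exon, and all 3 genes overlap an annotated gene on the opposite strand. The labels name no stranded counting, so reads of the partners cannot be told apart. Of these neighbours, Prdx2, which overlaps the end of the Junb locus and encodes a peroxiredoxin abundant in red cells, was at 188 and 233 FPKM, 1.24-fold lower (1.16 to 1.33). The antisense genes Junos at Jun and Gm11175 at Jund were not analysed here.

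**Figure D2:**
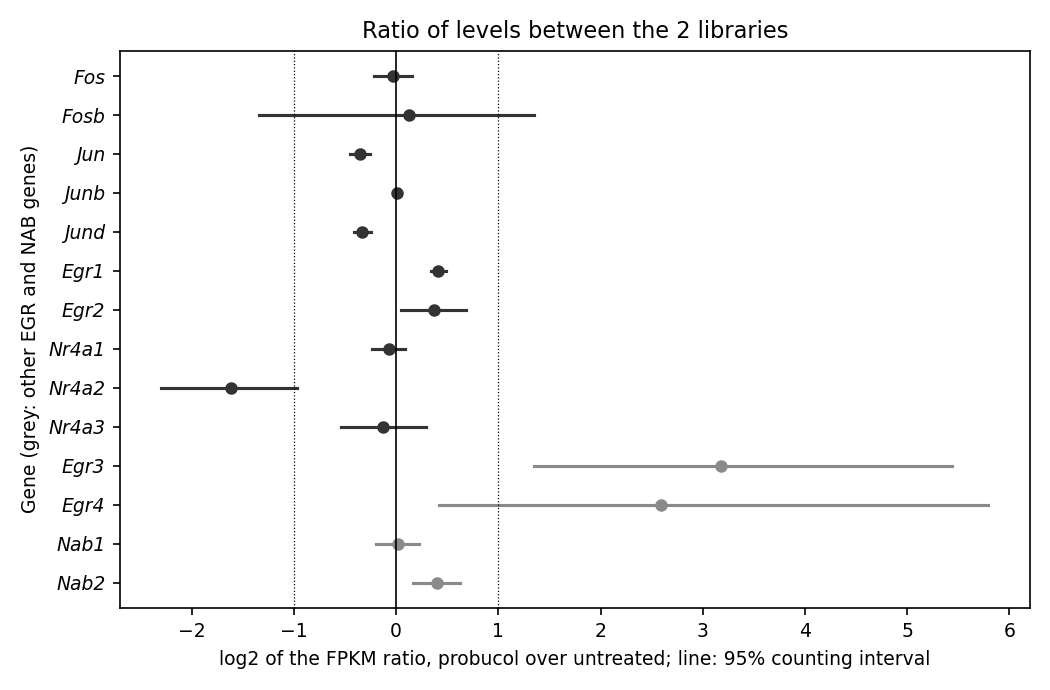
log2 of the FPKM ratio, probucol over untreated, for the 10 genes (black) and for the other EGR genes and the NAB genes (grey), with 95% counting intervals as lines; dotted lines mark 2-fold. Egr1 and Egr2 lie to the right of 0 at 1.33-fold and 1.29-fold, Jun and Jund to the left at 1.28-fold and 1.26-fold lower, and Nr4a2 lies 3.05-fold lower; the wide grey lines at the far right are Egr3 and Egr4, on at most 25 fragments a library.

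Egr1 (chromosome 18, 34859823 to 34864984) encodes the zinc finger factor most often read as a marker of growth factor and antigen receptor signalling. It stood at 108 FPKM in the probucol library against 80.9 FPKM in the untreated one, 1.33-fold higher (1.27 to 1.40). Egr2 (chromosome 10, 67535475 to 67542188), which restrains T cell activation and supports tolerance in mice, was at 27.7 and 21.5 FPKM, 1.29-fold higher (1.03 to 1.61). Both EGR genes were higher with probucol by a similar factor, and the ratio of Egr1 to Egr2 was 3.88 with probucol and 3.77 untreated. The ratio of Egr1 to Jun, 1.26 untreated, was 2.15 with probucol.

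The other members of the EGR family lay in the same direction at much lower levels. Egr3, which acts with Egr2 in T cells, stood at 1.005 FPKM in the probucol library against 0.111 FPKM in the untreated one, on about 25 and 3 fragments, a ratio of 9.04 (2.56 to 43.3). Egr4 was at 0.636 and 0.106 FPKM, on about 12 and 2 fragments, a ratio of 6.03 (1.34 to 55.5). Both have a mean under 1 FPKM, where all-gene shares were not taken, and they are named here after their values were seen. Nab2, which encodes an EGR corepressor and is itself induced by EGR proteins, was at 32.0 and 24.3 FPKM, 1.32-fold higher (1.12 to 1.54). Nab1, its constitutive relative, was at 32.7 and 32.3 FPKM, with a ratio of 1.01 (0.876 to 1.17). B cells also express EGR genes, and the summed B cell markers were at 105 FPKM in the probucol library against 56.0 FPKM in the untreated one. Of the 8 B cell markers at a mean FPKM of 1 or more, 7 were at least 2-fold higher, against 1.62% of all genes. The part of B cells in the EGR values was not tested.

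Nr4a1 (chromosome 15, 101254269 to 101274795) stood at 41.7 FPKM in the probucol library against 43.8 FPKM in the untreated one, with a ratio of 0.952 (0.851 to 1.07). Nr4a3, whose product overlaps in function with NR4A1 in T lymphocytes, was at 3.24 and 3.54 FPKM, with a ratio of 0.915 (0.689 to 1.22). Both libraries lay within the counting interval for these genes. Nr4a2 (chromosome 2, 57106830 to 57124003), which encodes Nurr1, was at 1.07 and 3.26 FPKM, on about 27 and 83 fragments, 3.05-fold lower with probucol (1.96 to 4.91). On the log2(FPKM + 1) scale this was -1.04, just past the 2-fold mark, and it rests on the lowest level among the 9 genes compared. With a pseudocount of 5 the log2 ratio of Nr4a2 was -0.45 and no gene of the group passed 2-fold.

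Nr4a1 made up 90.6% of the summed FPKM of the 3 NR4A genes with probucol and 86.6% untreated. The share of Nr4a2 was 2.32% and 6.44%, and that of Nr4a3 7.04% and 6.997%. Similarity between the family members bears on how fragments are assigned. The longest run shared by transcripts of any pair within a family was 27 bases, between Nr4a2 and Nr4a3, in the coding part of both, and it is printed to show how short the shared stretch is. Within the FOS, JUN and EGR families the longest shared runs were 17, 20 and 17 bases.
Nr4a2 and Nr4a3: gcaaataaaaactgcccagtggacaag

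**Figure D3:**
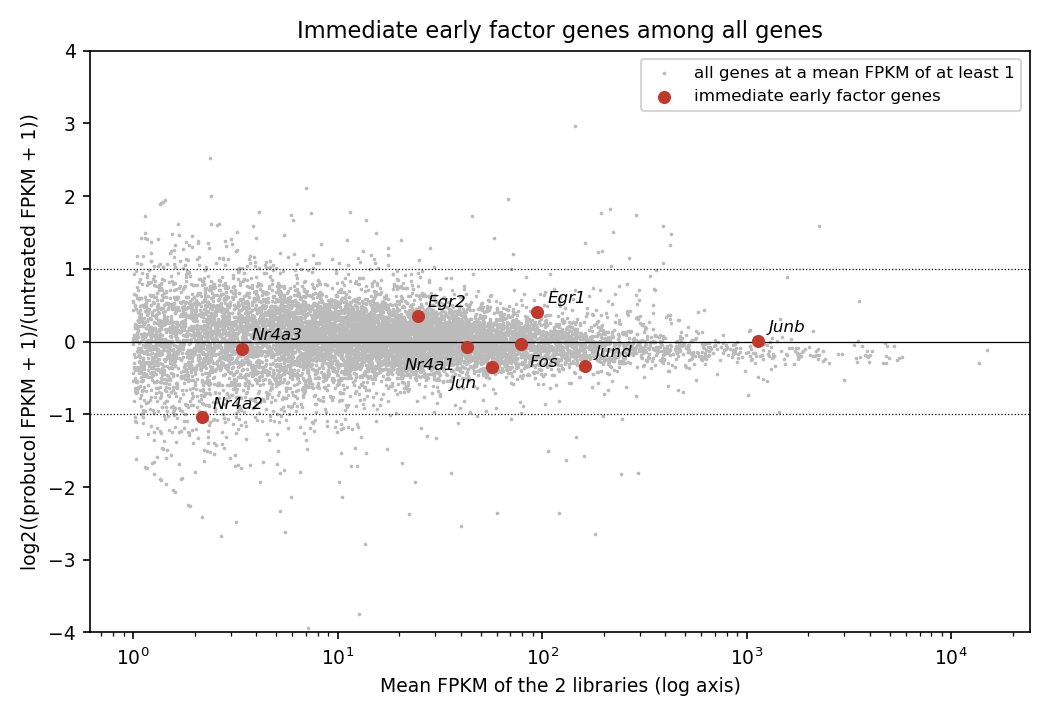
Mean FPKM of the 2 libraries (log axis) against the log2 ratio of FPKM + 1, probucol over untreated, for all 10663 genes with a mean of 1 or more (grey) and the 9 immediate early factor genes among them (red); dotted lines mark 2-fold, and 50 genes lie beyond the vertical axis. Of the 9 genes Nr4a2, at -1.04, lies past the 2-fold line, and the other 8 lie between -0.35 and 0.41.

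Other leucine zipper factors can replace FOS or compete for JUN. For this and the other lists, counts past a fold are on the log2(FPKM + 1) scale. The fold of a named gene divides its FPKM values directly and is larger where levels are low. These counts stand beside all-gene shares of 1.62% higher and 1.98% lower past 2-fold, and 5.99% and 5.53% past 1.5-fold. Of the 14 zipper factors listed, 8 had a mean FPKM of 1 or more, with 5 higher and 3 lower. Of these 8, 0 were past 2-fold and 1 past 1.5-fold in each direction. Their median log2 ratio was 0.16, against 0.02 over all genes. Batf, the partner of JUNB in T cells, was the most abundant at 236 FPKM in the probucol library against 238 FPKM in the untreated one, with a ratio of 0.991 (0.916 to 1.07). Its level was 3.004 and 2.97 times that of Fos. Atf7, which binds CRE sites, was at 9.78 and 5.24 FPKM, 1.87-fold higher (1.15 to 3.17), and Jdp2, a repressor that pairs with JUN, was at 4.599 and 7.97 FPKM, 1.73-fold lower (1.26 to 2.39). Atf3, a stress-induced relative chosen after its value was seen, was at 0.227 and 0.226 FPKM, about 4 fragments in each library.

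For the kinases and transcription factors that act upstream the list medians were small, while some single genes differed beyond their counting intervals. Of 18 kinases and exchange factors at a mean FPKM of 1 or more, 6 were higher and 12 lower, with 1 past 1.5-fold on the log2(FPKM + 1) scale, and the median log2 ratio was -0.08. Prkcq, the protein kinase C of the T cell synapse, was at 166 and 160 FPKM, with a ratio of 1.03 (0.986 to 1.08). Rasgrp1, which activates RAS below the antigen receptor, was at 64.8 and 46.3 FPKM, 1.40-fold higher (1.28 to 1.53). The gene past 1.5-fold on that scale was Rps6ka3, which encodes the kinase RSK2, at 2.18 and 1.08 FPKM on about 11 and 5 fragments, a ratio of 2.02 (0.708 to 8.12). Braf, which encodes a RAF kinase, was at 4.36 and 2.68 FPKM on about 89 and 55 fragments, 1.62-fold higher (1.15 to 2.32), and missed the mark on FPKM + 1. Of the 13 upstream factors, 9 were higher and 4 lower, with 0 past 2-fold and a median of 0.11. Crem, which encodes CRE-binding activators and repressors, was the only one past 1.5-fold, at 14.6 and 24.6 FPKM, 1.69-fold lower (1.34 to 2.14). Elk1 and Elk4, ternary complex factors that join serum response factor at CArG boxes, were 1.40-fold (1.06 to 1.84) and 1.26-fold higher (1.05 to 1.53). Their relative Elk3, named after its value was seen, lay in the other direction at 11.1 and 13.2 FPKM. Its ratio was 0.839 (0.654 to 1.07), so these factors did not share a direction.

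Of 34 further early response genes at a mean FPKM of 1 or more, 24 were higher with probucol and 10 lower, where 5617 of all 10663 genes were higher and 5046 lower. None of these 34 passed 2-fold, 2 were past 1.5-fold higher and 1 lower on the log2(FPKM + 1) scale, and the median log2 ratio was 0.11. The abundant early genes Ier2, at 337 and 338 FPKM, Nfkbia, at 347 and 332 FPKM, and Btg1, at 335 and 317 FPKM, had ratios of 0.996 (0.955 to 1.04), 1.05 (0.994 to 1.10) and 1.06 (1.03 to 1.09). Cd69, the early activation antigen that keeps lymphocytes in tissue, was at 148 and 97.0 FPKM, 1.52-fold higher (1.36 to 1.72). Nfkbiz, which encodes a nuclear IkB protein, was at 20.0 and 13.2 FPKM, 1.52-fold higher (1.35 to 1.71). On FPKM + 1 the log2 ratio of Nfkbiz was 0.57, under the mark for 1.5-fold. Plk2, a polo-like kinase gene, was at 3.25 and 1.73 FPKM, 1.87-fold higher (1.11 to 3.27), and Gadd45a, a growth arrest gene, was at 5.13 and 8.45 FPKM, 1.65-fold lower (0.988 to 2.79). B cells also express Cd69 and other genes of this list, and the sums of the B cell markers stood at 105 and 56.0 FPKM. Of the 8 B cell markers at a mean FPKM of 1 or more, 7 were at least 2-fold higher, against 1.62% of all genes. The part of B cells in these values was not tested.

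Factors that bind DNA beside AP-1 or NR4A proteins had 6 of 8 genes higher and 2 lower, with 0 past 1.5-fold and a median log2 ratio of 0.10. Nfatc1, which encodes an NFAT partner of AP-1, was at 108 and 122 FPKM, 1.12-fold lower (1.08 to 1.17), and Nfatc2, another, was at 19.0 and 13.4 FPKM, 1.42-fold higher (1.24 to 1.64). Genes known to be induced by T cell activation numbered 19 at a mean of 1 or more. Of these, 7 were higher and 12 lower, with 0 past 2-fold and a median of -0.07. In each direction 1 was past 1.5-fold, against 5.99% higher and 5.53% lower among all genes. The gene higher by that fold was Tnf, a cytokine gene that NFAT and AP-1 induce, at 12.1 against 7.46 FPKM. Tnfrsf9, which encodes the costimulatory receptor 4-1BB, was at 26.2 and 48.5 FPKM, 1.86-fold lower (1.57 to 2.21). Lag3, an inhibitory receptor gene, was at 6.93 and 9.62 FPKM, 1.39-fold lower (1.02 to 1.93), and Pdcd1, which encodes PD-1, was at 173 and 206 FPKM, 1.19-fold lower (1.13 to 1.25). Tox2, a relative of the exhaustion factor Tox, was at 40.7 and 30.4 FPKM, 1.34-fold higher (1.18 to 1.52). These lists thus held genes in both directions, with medians on either side of 0.

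**Figure D4:**
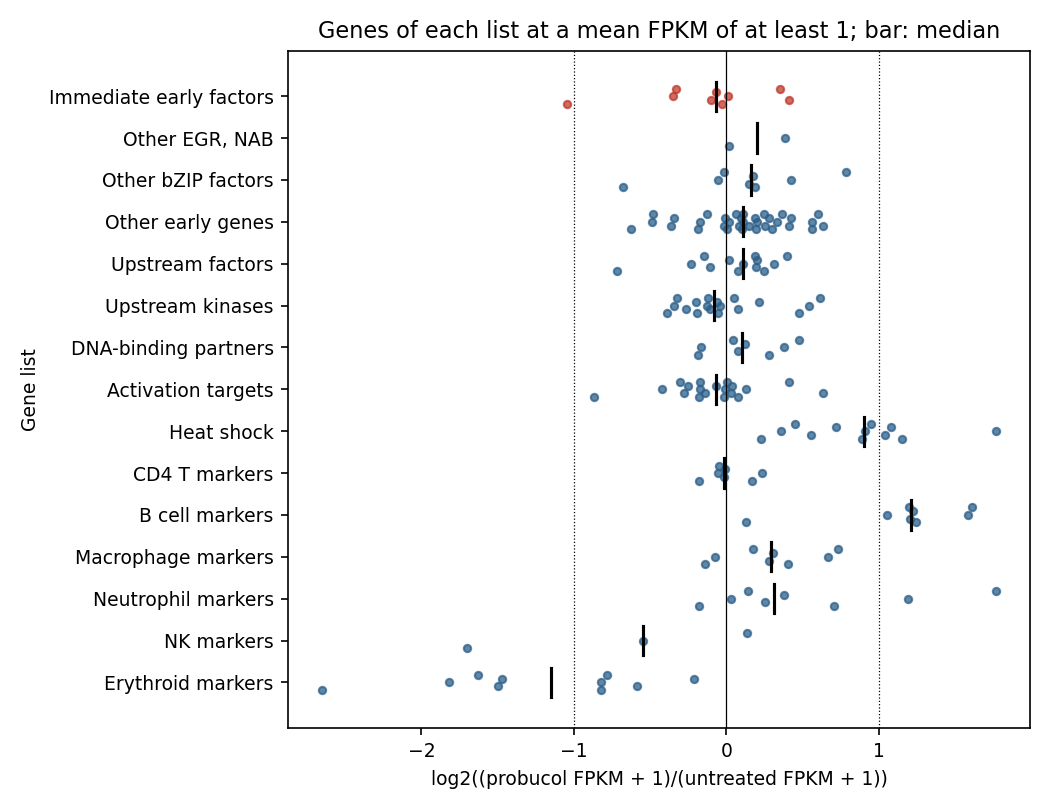
log2 ratio of FPKM + 1, probucol over untreated, for each gene of each list at a mean FPKM of 1 or more, with the list median as a bar; dotted lines mark 2-fold. The immediate early factors centre near 0 with a median of -0.07, the B cell and heat shock genes lie to the right with medians of 1.21 and 0.90, and the erythroid genes to the left with a median of -1.15.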

How the data were processed

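RNA was measured in 2 libraries, 1 per group. Per the labels' protocols, the miRNeasy Micro Kit served for RNA, SMART-Seq HT for cDNA and a Nextera kit for the libraries; no molecular identifiers are named, so PCR copies are included. The authors deposited FPKM, 1 value per gene symbol, per the file headers. The submitters' processing notes list TopHat2 2.1.1, Bowtie2, Cuffdiff 2.2.1 and the build mm10; for the annotation and any scaling between libraries no source used here gives a statement.

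Ratios on the log2 scale used FPKM + 1 and so understate the change of low genes; folds are ratios of FPKM. Genes with a mean FPKM of 1 or more were counted past 2-fold and 1.5-fold. Fragments were estimated from steps in low values of genes with 1 transcript of 800 to 10000 bases (GENCODE M21): for 1 kb, 1 fragment was worth 0.101 FPKM (probucol) or 0.100 FPKM (untreated) once 210 bases were subtracted; 77.5% and 77.9% of low values lay within 0.1 of a whole number, against 20.0% by chance. Fragments per gene used the median transcript length. Summed, these gave 5.51e+06 and 5.63e+06 fragments, and the longest transcript gave 1.34e+07 and 1.35e+07, on either side of the totals the step implies, so intervals are approximate. The step fit and the intervals were tested on simulated data drawn with the same median lengths. That simulation held no PCR copies and no wrong lengths, so it cannot show how well the intervals hold in these libraries. Members and lists were chosen with earlier results of these data known; the promoter elements and printed stretches, the ratios between genes and the family shares with Fosl1, Fosl2, Egr3 and Egr4 were chosen after values were seen. Beyond the 10 genes, up to 4 genes per list with the largest ratios and 3 with the highest levels could be named, and not all are printed; Ahsp found no match. A further gene that the rule names is not reported here. Alternatives were pseudocounts of 0.1 and 5, other filters, rescaling, centring and the longest transcript. Python 3.11.15, pandas 2.3.3 and SciPy 1.17.1 were used.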

Additional observations from a re-analysis of the deposited data

How the results depend on the processing

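No paired analysis was possible because each group has 1 library, and for the same reason no replicate could be left out. The count of genes at least 2-fold lower, 1 of 9, and that of genes past 2-fold in either direction became 0 with a pseudocount of 5 and 0 at a mean FPKM of at least 5, where 7 genes were compared. The cause is the construction of both settings, since Nr4a2 has a mean of 2.16 FPKM. All-gene shares past 2-fold were 1.12% and 2.23% under these settings. The other 20 values of the counts and the median under the alternatives stayed within 1.5 times the count or within the spread of the genes, among them the median log2 ratio and the count of 0 genes higher. Of 40 log2 ratios of single genes under other pseudocounts, rescaling or centring, 39 stayed within their counting interval, and that of Nr4a2 with a pseudocount of 5 did not. Transcript length does not enter these ratios. Junb, near 0, ranged from -0.00317 when centred on the median gene to 0.04, and so changed sign. Egr1 ranged from 0.39 to 0.43, Jun from -0.37 to -0.33, Jund from -0.35 to -0.31 and Nr4a2 from -1.52 to -0.45. With the longest transcript in place of the median, the interval of the Egr2 fold was 1.16 to 1.44 and that of the lower fold of Nr4a2 was 2.07 to 4.56. Depth limits Fosb, at about 11 fragments a library, where the interval of the ratio spans 0.395 to 2.56.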

Other observations

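Heat shock genes, which encode chaperones, differed between the same libraries. Of 12 heat shock genes, 12 were higher with probucol, where 5617 of all 10663 genes were higher. On the log2(FPKM + 1) scale 4 were at least 2-fold and 8 at least 1.5-fold higher. The shares of all genes higher by these folds were 1.62% and 5.99%. The list was chosen with earlier results of these data known, so its counts are a description and not a test. Hsph1, which encodes an HSP110 chaperone, was at 299.8 FPKM in the probucol library against 87.4 FPKM in the untreated one, 3.43-fold higher (3.09 to 3.81), and Hsp90aa1, the inducible cytosolic HSP90, at 369 and 166 FPKM, with a ratio of 2.23 (2.03 to 2.45). The median log2 ratio of the heat shock list was 0.90 and that of the 9 immediate early factor genes -0.07. By ratios of FPKM, Hspb1, at 6.20 and 2.73 FPKM, was also past 2-fold. Hspa1a, at 3.79 and 1.27 FPKM, has a near-identical copy, so its value is uncertain. In the same libraries the summed B cell markers were at 105 and 56.0 FPKM and the erythroid markers at 307 and 1108 FPKM. Of the 8 B cell markers at a mean FPKM of 1 or more, 7 were at least 2-fold higher, against 1.62% of all genes. The part of these cells in the heat shock values was not tested.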
